A study of Homo sapiens with 8 samples.

Results

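NDUFA4L2, the MIR210HG transcript and 5 further nuclear genes tied to how mitochondria respond to low oxygen (ISCU, COX4I2, LONP1, HIGD1A and CHCHD2) were followed across mRNA libraries of HGC27 gastric cancer cells. They are 7 of 25435 genes in the count table. They were chosen by name around genes whose read counts were higher in cells with p53 R175H than in cells with GFP, so values from libraries of R175H are given here for the 7 genes as a description, without a test. Of the hypoxia-linked genes, 4 were set beside a constitutive relative: NDUFA4L2 beside NDUFA4, COX4I2 beside COX4I1, HIGD1A beside HIGD2A and CHCHD2 beside CHCHD10. LONP1 was set beside CLPP, another protease of the mitochondrial matrix and not a relative. MIR210HG, a host transcript with no such relative, was set beside ISCU, a reported target of the microRNA it carries.

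When oxygen falls, the prolyl hydroxylases that mark HIF-1α for degradation slow down, and HIF-1 dimers bind short motifs with the core letters ACGTG or GCGTG near their target genes. Several targets act on mitochondria. They swap subunits of cytochrome c oxidase (complex IV), hold pyruvate out of the citric acid cycle, remove mitochondria by autophagy, or, through miR-210, lower the scaffold protein on which iron-sulfur clusters are built. NDUFA4L2 is a HIF-1 target that resembles NDUFA4, a subunit now assigned to complex IV, and it has been described as lowering respiration and reactive oxygen species.

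The sequences that join MIR210HG to ISCU are shown because they define that pair. The mature hsa-miR-210-3p lies on the minus strand at chr11:568112-568133 (GRCh38.p14, RefSeq), inside the MIR210HG gene, and its seed, bases 2 to 8, is in capitals. The 3′ UTR of ISCU on chromosome 12 (GENCODE 29) holds the 7-base complement of that seed 114 bases into its 471, again in capitals.

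hsa-miR-210-3p: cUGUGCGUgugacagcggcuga
ISCU 3′ UTR site: aagagctatgagatACGCACAa

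The same 7-base match occurs in 562 of 19873 annotated 3′ UTRs, or 2.83%, and a match is a description of the letters and not of binding. The annotated 3′ UTRs of NDUFA4L2, LONP1, HIGD1A and CHCHD2 do not hold it. Mature miR-210 is not measured by mRNA libraries, and the short MIR210 row had 1 count in all, in GFP replicate 2.

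The cells belong to HGC27, an established human gastric carcinoma line that the labels describe as having no p53, grown in alpha-MEM. They overexpressed p53 R175H, p53 R248Q, p53 R273H or, as the control, GFP, with 2 libraries per group and 8 in all. The labels name no low-oxygen treatment, the sources used here do not give the vector or promoter, and nothing says that the libraries of a group came from separate cultures, so p-values measure only the spread between these libraries. The libraries held 6800463 to 11788035 counts. Levels are given as counts per 1000000 (CPM), and the detection floor used here, 3 counts, is 0.254 to 0.441 CPM.

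VIM, a mesenchymal filament, was between 4612 and 5733 CPM, and the epithelial genes EPCAM and CDH1 reached at most 0.295 CPM. The epithelial keratin KRT8 was low and differed between groups, at 0.443 and 0.337 CPM in R175H, 2.81 and 3.34 CPM in R248Q, 1.25 and 2.48 CPM in R273H and 1.34 and 1.11 CPM in GFP. It was higher in R248Q than in GFP (1.32 ± 0.35; adjusted p = 0.036, not called by DESeq2) and lower in R175H than in R248Q (-2.97 ± 0.49; adjusted p = 0.0014) and R273H (-2.25 ± 0.55; adjusted p = 0.032), the last 2 not called by DESeq2 either. VIM, the mesenchymal intermediate filament, was higher in R175H than in GFP (0.20 ± 0.04; adjusted p = 0.0089). The part of KRT8 and VIM in the results was not tested. COX4I2 and NDUFA4L2 are also known from pericytes: 8 of 9 pericyte markers passed the count filter, with summed levels of 662 to 663 CPM in R175H, 747 to 749.5 CPM in R248Q, 682 to 712 CPM in R273H and 635 to 729.6 CPM in GFP. Of the 8, 0 were called in R175H against GFP by edgeR or DESeq2 (1 higher and 2 lower at an unadjusted p under 0.05), CSPG4 (0.71 ± 0.14; adjusted p = 0.0063) and NOTCH3 (0.35 ± 0.09; adjusted p = 0.031) rose in R248Q, where DESeq2 also called 2, and PDGFRB rose in R273H (0.76 ± 0.17; adjusted p = 0.036, not called by DESeq2). NOTCH3 was also lower in R175H than in R248Q (-0.35 ± 0.09; adjusted p = 0.028). Over all genes, edgeR called 4.88% higher in R248Q and 0.757% higher in R273H against GFP. The part of these markers in the results was not tested. Endothelial CDH5 and KDR and the blood genes CD3E and HBB were at 0 in all 8 libraries, and the summed endothelial and blood lists reached at most 2.99 and 17.9 CPM.

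NDUFA4L2 stood at 159 and 159 CPM in R175H, 42.4 and 44.1 CPM in R248Q, 42.9 and 43.6 CPM in R273H and 50.3 and 41.1 CPM in GFP. Both R175H libraries lay far above the other 6, which overlapped one another. In counts these were 1074 and 1416 reads in R175H and 371 to 515 reads elsewhere, so counting error is small beside the difference. Group means were 159 ± 0.246 CPM in R175H, 43.3 ± 1.19 in R248Q, 43.3 ± 0.485 in R273H and 45.7 ± 6.45 in GFP (SD, n = 2 each), and the order of the lower groups is within the GFP spread. As a description, NDUFA4L2 was 3.46-fold higher in R175H than in GFP, a log2 fold change of 1.79 ± 0.08 (SE), and 1.87 ± 0.08 above both R248Q and R273H. In bulk libraries, fewer cells that express a gene and less RNA per cell cannot be told apart.

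**Figure D1:**
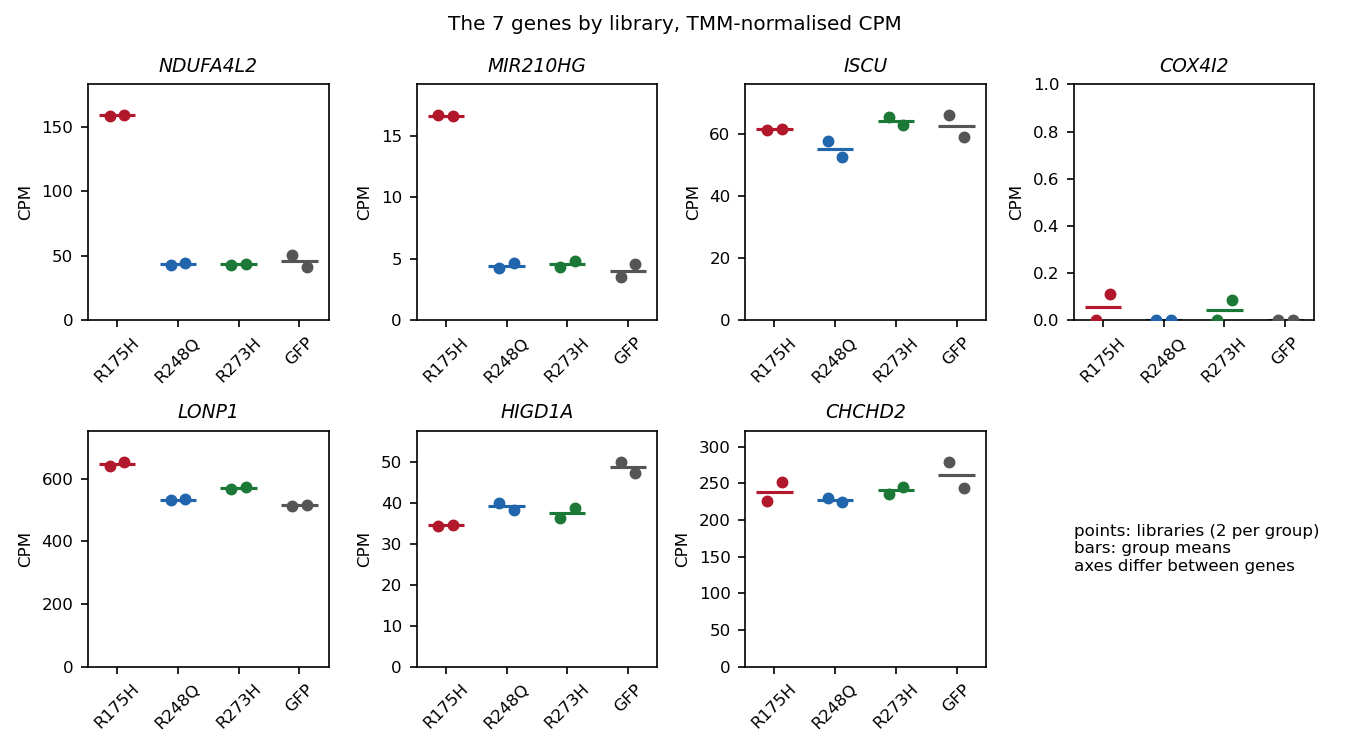
TMM-normalised CPM of the 7 genes in each library (points, 2 per group) with group means (bars), each gene on its own axis from 0. NDUFA4L2 and MIR210HG are high in both R175H libraries, HIGD1A is highest in both GFP libraries, and COX4I2 is at 0 or 1 count.

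The comparisons that did not use R175H were tested. NDUFA4L2 differed from GFP by -0.08 ± 0.09 in R248Q (log2, SE; 95% interval -0.27 to 0.11; adjusted p = 0.64) and by -0.08 ± 0.09 in R273H (-0.27 to 0.11; adjusted p = 0.75). R273H against R248Q gave 0.00 ± 0.09 with an interval of -0.18 to 0.19. None of these passed the threshold, and all 3 intervals exclude a rise of the size seen with R175H. The first 2 comparisons share the GFP libraries with the contrast by which the genes were chosen, whereas the last uses none of them.

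NDUFA4, the constitutive relative, was at 238 and 250.5 CPM in R175H, 243 and 245 CPM in R248Q, 244 and 269 CPM in R273H and 292 and 258 CPM in GFP. It did not pass the test in any mutant, with log2 fold changes of -0.17 ± 0.07 in R175H (adjusted p = 0.12), -0.17 ± 0.07 in R248Q (adjusted p = 0.14) and -0.10 ± 0.07 in R273H (adjusted p = 0.57). The balance of the pair can be read within a library, where the scaling between libraries cancels. There were 66.6 and 63.4 NDUFA4L2 counts per 100 NDUFA4 counts in R175H, 17.5 and 18.0 in R248Q, 17.6 and 16.2 in R273H and 17.2 and 16.0 in GFP. Divided by transcript length (1186 nt for NDUFA4L2 and 2130 nt for NDUFA4), the levels were 134 and 115 CPM per kb in R175H, against 38.5 and 129 CPM per kb in GFP. On that per-length scale NDUFA4L2 stood at 120 and 114 per 100 of NDUFA4 in the R175H libraries, against 30.9 and 28.7 in the GFP libraries. The scale rests on an annotated transcript length for each gene. Which transcript forms these cells make was not measured, so the values do not show which mRNA is more abundant. The log2 ratio was 1.97 ± 0.09 higher in R175H than in GFP (SD of the difference), and 2 libraries against 2 cannot reach an exact permutation p below 0.333, so ratios are given without a test.

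**Figure D2:**
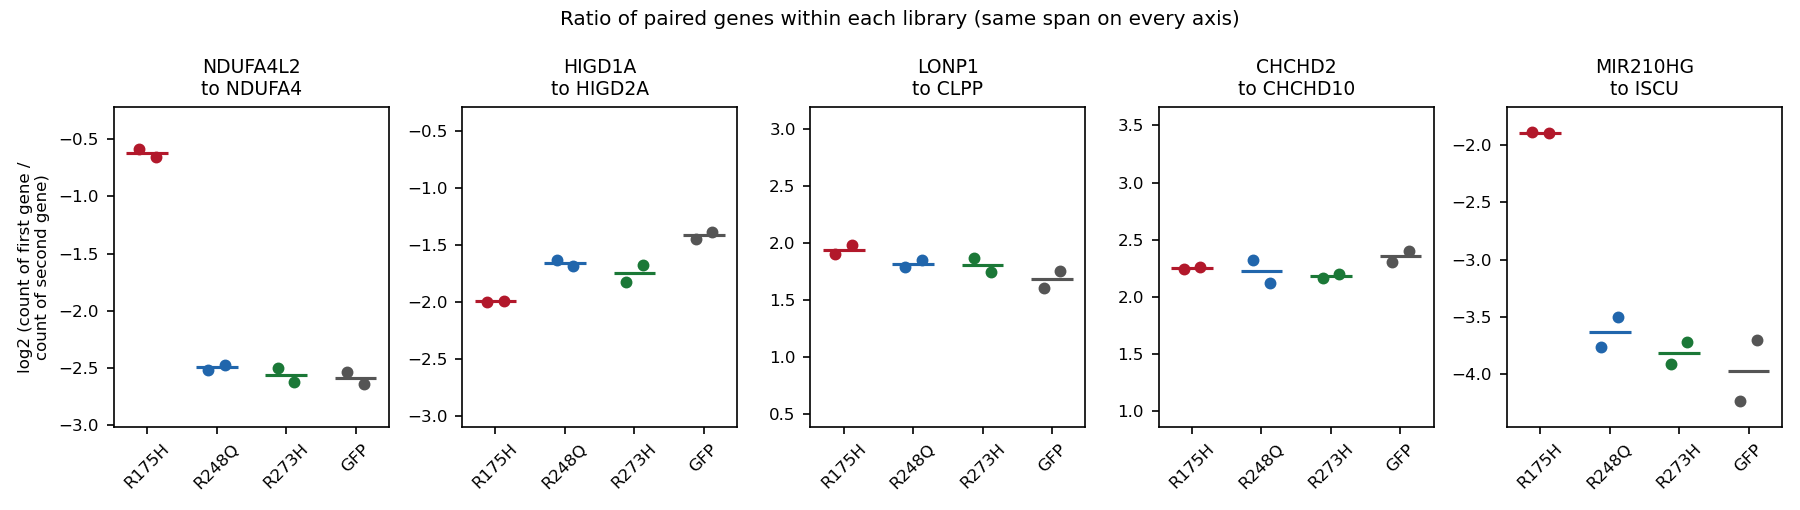
Log2 ratio of the counts of paired genes within each library (points) with group means (bars), all axes spanning the same range. R175H stands apart for NDUFA4L2 to NDUFA4 and MIR210HG to ISCU, and all 6 mutant libraries lie below both GFP libraries for HIGD1A to HIGD2A.

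NDUFA4L2 shares 29 exonic bases, 2.2% of its exonic length, with SHMT2 on the opposite strand (GENCODE 29), and the strand setting of the counting is not given. SHMT2, the mitochondrial serine hydroxymethyltransferase, was at 961 and 973 CPM in R175H and 692 and 676 CPM in GFP, a rise of 0.50 ± 0.05 (adjusted p = 6.9e-06). Whether reads of the shared bases entered the NDUFA4L2 count was not tested.

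MIR210HG, the spliced noncoding transcript that hosts miR-210, was at 16.7 and 16.6 CPM in R175H, 4.26 and 4.63 CPM in R248Q, 4.36 and 4.78 CPM in R273H and 3.50 and 4.55 CPM in GFP. The R175H libraries again stood alone and the other 6 overlapped. The counts were 113 and 148 reads in R175H, 50 and 54 in R248Q, 49 and 56 in R273H and 34 and 41 in GFP, so single values of this gene carry more counting error than those of NDUFA4L2. As a description it was 4.15-fold higher in R175H than in GFP (log2 2.05 ± 0.17, SE). It differed from GFP by 0.15 ± 0.21 in R248Q (-0.29 to 0.59; adjusted p = 0.72) and by 0.19 ± 0.21 in R273H (-0.25 to 0.63; adjusted p = 0.75). R273H against R248Q gave 0.04 ± 0.19 (adjusted p = 0.97).

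The promoter of MIR210HG at chr11:568408-568707, minus strand, is shown from 250 bases before to 50 after the start (GRCh38.p14, RefSeq). It was searched on both strands for ACGTG and GCGTG, the core letters of HIF sites, with matches in capitals.

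MIR210HG promoter: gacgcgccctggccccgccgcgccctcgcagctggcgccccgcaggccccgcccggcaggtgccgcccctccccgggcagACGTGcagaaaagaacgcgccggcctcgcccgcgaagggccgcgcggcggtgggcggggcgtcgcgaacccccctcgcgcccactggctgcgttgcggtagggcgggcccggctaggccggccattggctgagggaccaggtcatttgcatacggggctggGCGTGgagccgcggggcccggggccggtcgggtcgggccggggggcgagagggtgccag

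There is an ACGTG 170 bases before the start and a GCGTG 9 bases before it. Among 35116 promoter windows of the same length, 21.4% hold ACGTG, 36.5% hold GCGTG and 48.4% hold at least 1 of them, so a match is common and says nothing of binding in these cells.

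ISCU, the scaffold protein for iron-sulfur clusters, was at 61.5 and 61.7 CPM in R175H, 58.0 and 52.6 CPM in R248Q, 65.6 and 62.9 CPM in R273H and 66.2 and 59.2 CPM in GFP. The R175H libraries fell between the GFP libraries while MIR210HG was at its highest. As a description, ISCU in R175H was -0.03 ± 0.08 from GFP on the log2 scale (-0.20 to 0.15). In R248Q it was -0.18 ± 0.08 (adjusted p = 0.19) and in R273H 0.03 ± 0.08 (adjusted p = 0.89), and neither passed the test. Per 100 ISCU counts there were 27.1 and 26.9 MIR210HG counts in R175H, 7.34 and 8.80 in R248Q, 6.64 and 7.60 in R273H and 5.28 and 7.68 in GFP, a log2 ratio 2.09 ± 0.38 higher in R175H than in GFP (SD of the difference).

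Of 14 genes reported as miR-210 targets, the 13 besides ISCU all passed the filter. In R175H against GFP 0 were called in either direction by edgeR's quasi-likelihood test and 0 by DESeq2, with 1 higher and 1 lower at an unadjusted p under 0.05, and their median log2 fold change was 0.02, beside 0.01 over all genes tested. The ISCU type of 7-base match also occurs in the 3′ UTRs of COX10, GPD1L, EFNA3, E2F3, FGFRL1 and ACVR1B. No 3′ UTR of CASP8AP2, another listed target, was searched. COX10, which farnesylates the heme of complex IV, was at 38.5 and 35.1 CPM in R175H and 31.9 and 30.5 CPM in GFP (0.23 ± 0.10; adjusted p = 0.17). FGFRL1, whose 3′ UTR holds 7 matches, was at 132 and 138 CPM in R175H and 131 and 136 CPM in GFP (0.02 ± 0.06; adjusted p = 0.86). EFNA3, an ephrin ligand, moved in another comparison: it was at 31.4 and 32.2 CPM in R175H, 20.5 and 22.1 CPM in R248Q, 19.7 and 22.6 CPM in R273H and 28.8 and 27.4 CPM in GFP. It fell by 0.40 ± 0.10 in R248Q (adjusted p = 0.026, which became 0.13 with DESeq2 and 0.085 without GFP replicate 1) and stood at -0.41 ± 0.10 in R273H (adjusted p = 0.067). Against R248Q and R273H it was higher in R175H by 0.58 ± 0.10 (adjusted p = 0.0022) and 0.59 ± 0.10 (adjusted p = 0.0031). Also against R248Q, the transport receptor TNPO1 was lower in R175H (log2 -0.24 ± 0.06; adjusted p = 0.025), as was the cell cycle factor E2F3 (-0.28 ± 0.08; adjusted p = 0.040), and DESeq2 called 1 of these 2.

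Of the 15 iron-sulfur cluster assembly genes besides ISCU, 1 fell in R175H and 0 rose: FDX1L, a mitochondrial ferredoxin, was at 31.0 and 33.5 CPM in R175H and 41.4 and 39.5 CPM in GFP (-0.32 ± 0.09; adjusted p = 0.031, and 0.12 with DESeq2). LYRM4, a partner of the cysteine desulfurase, was at -0.26 ± 0.08 (adjusted p = 0.060). The median of the list in R175H was -0.07, and edgeR called 6.39% of all genes higher and 4.59% lower there. In R248Q and R273H 0 genes of the list were called by edgeR or DESeq2, with 0 higher and 2 lower and 0 higher and 1 lower at an unadjusted p under 0.05.

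COX4I2, the oxygen-sensitive form of complex IV subunit 4, was practically undetected. It had 0 and 1 counts in R175H, 0 and 0 in R248Q, 0 and 1 in R273H and 0 and 0 in GFP, all under the floor of 3 counts, so no fold is given and it did not enter the test. Its constitutive relative COX4I1 had 390 and 399 CPM in R175H, 356 and 363 CPM in R248Q, 372 and 387 CPM in R273H and 456 and 370.5 CPM in GFP. COX4I1 did not pass the test in R175H (-0.07 ± 0.08; adjusted p = 0.61), R248Q (-0.20 ± 0.07; adjusted p = 0.12) or R273H (-0.13 ± 0.07; adjusted p = 0.51). NDUFA4L2 was therefore the one alternative complex IV form tested: the 6 further isoforms in the list did not pass the filter, and COX6A2 and COX7B2 had 0 counts in all 8 libraries. CHCHD2, RBPJ and CXXC5 are known to act on an oxygen-responsive element of the COX4I2 promoter. RBPJ was at 57.1 and 56.3 CPM in R175H and 41.9 and 46.9 CPM in GFP (0.35 ± 0.08; adjusted p = 0.013), and CXXC5 at 46.5 and 47.0 CPM in R175H and 35.5 and 40.5 CPM in GFP (0.30 ± 0.09; adjusted p = 0.042). What either factor does at the COX4I2 promoter in these cells was not tested. With DESeq2, and without GFP replicate 1, 1 of these 2 factors was called.

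The 12 constitutive complex IV subunits gave 0 calls against GFP in any mutant by edgeR or DESeq2. At an unadjusted p under 0.05, 0 were higher and 1 lower in R175H, 0 higher and 8 lower in R248Q, and 0 higher and 1 lower in R273H. The share of all genes past that unadjusted threshold is not given here. Their median log2 fold changes were -0.08 in R175H, -0.18 in R248Q and -0.09 in R273H, and became 0.07, -0.03 and 0.06 without GFP replicate 1. That library was high for short transcripts, with a median deviation of 0.19 (log2) for genes under 1000 nt and -0.28 for those of 8000 nt or more. Of 23 complex IV assembly factors besides HIGD1A, 1 rose and 4 fell in R175H, and the 4 were COA1 (-0.38 ± 0.07; adjusted p = 0.0023), COA7 (-0.31 ± 0.08; adjusted p = 0.024), the copper chaperone COX17 (-0.56 ± 0.15; adjusted p = 0.024) and SCO1, which also delivers copper (-0.28 ± 0.08; adjusted p = 0.029). COX17 was at 11.2 and 11.2 CPM in R175H and 18.6 and 14.4 CPM in GFP, and without GFP replicate 1 its difference was -0.36 (adjusted p = 0.18). The 1 that rose was LRPPRC, which stabilises mitochondrial mRNAs (0.18 ± 0.05; adjusted p = 0.038). Over all genes, edgeR called 6.39% higher and 4.59% lower in R175H against GFP. DESeq2 called 0 higher and 1 lower, and without GFP replicate 1 the counts were 2 higher and 2 lower. In R248Q and R273H 0 were called by either tool, with 0 higher and 5 lower and 0 higher and 3 lower at an unadjusted p under 0.05.

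**Figure D3:**
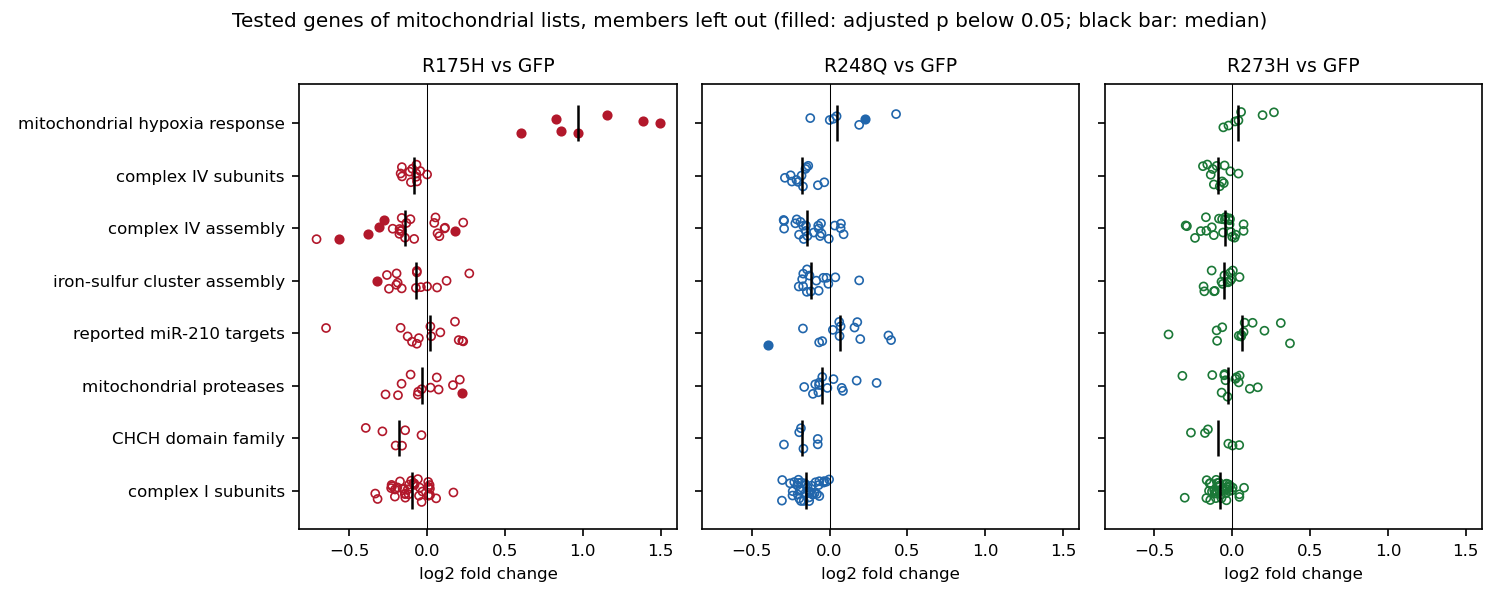
Log2 fold change against GFP of the tested genes in 8 mitochondrial lists, the 7 genes left out, in R175H, R248Q and R273H. Filled points have an adjusted p below 0.05 and black bars are medians: all 7 tested genes of the mitochondrial hypoxia response are filled and to the right in R175H, while the other lists lie near 0.

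LONP1, the ATP-dependent protease of the mitochondrial matrix that degrades oxidised proteins and, in hypoxia, the constitutive COX4I1 protein, was at 640.5 and 655 CPM in R175H, 532 and 535 CPM in R248Q, 567 and 574.5 CPM in R273H and 513.5 and 518 CPM in GFP. The group means were highest in R175H, followed by R273H, R248Q and GFP, and this order was not tested. As a description, LONP1 was 1.26-fold higher in R175H than in GFP (log2 0.33 ± 0.05). R248Q stood 0.05 ± 0.05 above GFP (adjusted p = 0.60) and R273H 0.15 ± 0.05 (adjusted p = 0.21), and neither passed the test. Without GFP replicate 2 the R273H value was 0.15. With the length trend removed it was 0.15 as well and passed (adjusted p = 0.021). That setting called 305 of all genes in R273H against GFP, where the main fit called 133. R273H against R248Q gave 0.10 ± 0.05 (-0.01 to 0.20; adjusted p = 0.66).

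CLPP, the second matrix protease, was at 171 and 166 CPM in R175H, 154 and 148 CPM in R248Q, 155.5 and 171 CPM in R273H and 169 and 153 CPM in GFP, with libraries of each mutant overlapping those of GFP. Its log2 fold changes were 0.06 ± 0.07 in R175H (adjusted p = 0.60), -0.09 ± 0.07 in R248Q (adjusted p = 0.44) and 0.02 ± 0.07 in R273H (adjusted p = 0.93). Per 100 CLPP counts there were 375 and 395 LONP1 counts in R175H, 346 and 360.5 in R248Q, 365 and 336 in R273H and 304 and 339 in GFP, a log2 ratio 0.26 ± 0.12 higher in R175H than in GFP. Of the 13 mitochondrial proteases and processing peptidases besides LONP1, 1 rose in R175H: PMPCB, a subunit of the presequence peptidase, at 114 and 105 CPM in R175H and 97.0 and 89.9 CPM in GFP (0.23 ± 0.07; adjusted p = 0.048, and 0.15 with DESeq2). Their median in R175H was -0.03, and edgeR called 6.39% of all genes higher and 4.59% lower there. In R248Q and R273H 0 were called by edgeR or DESeq2, with 1 higher and 1 lower and 0 higher and 2 lower at an unadjusted p under 0.05. LONP1 shares 43 exonic bases, 1.22% of its exons, with RPL36 on the opposite strand, and RPL36 was at -0.01 ± 0.08 in R175H against GFP.

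The promoter of LONP1 is shown because it holds the most HIF core letters among the windows searched, those of MIR210HG, LONP1, HIGD1A, HIGD2A, ISCU, CHCHD2, CHCHD10 and COX4I1. Promoters of NDUFA4L2, NDUFA4, COX4I2 and CLPP were not analysed here. This window, the first of 2 that RefSeq lists for the gene, lies at chr19:5720097-5720396, minus strand (GRCh38.p14), with matches on either strand in capitals.

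LONP1 promoter: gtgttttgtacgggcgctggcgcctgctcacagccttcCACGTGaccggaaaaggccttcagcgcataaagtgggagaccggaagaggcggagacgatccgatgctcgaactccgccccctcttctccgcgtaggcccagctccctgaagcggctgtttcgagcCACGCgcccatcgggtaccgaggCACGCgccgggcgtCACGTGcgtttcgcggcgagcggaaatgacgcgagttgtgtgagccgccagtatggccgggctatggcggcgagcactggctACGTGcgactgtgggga

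It holds 7 matches, 5 of ACGTG and 2 of GCGTG. Of the 5, 4 come from 2 copies of the palindrome CACGTG, which reads as ACGTG on both strands and is also the E-box letters of MYC and related factors. In the same windows HIGD1A had 3 matches, HIGD2A 2, ISCU 2, CHCHD2 1, CHCHD10 1 and COX4I1 0.

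HIGD1A, a small inner-membrane protein that binds complex IV and is induced by HIF-1 in other cells, was lower in every mutant. It was at 34.4 and 34.8 CPM in R175H, 40.0 and 38.5 CPM in R248Q, 36.5 and 38.9 CPM in R273H and 50.2 and 47.5 CPM in GFP. All 6 mutant libraries lay below both GFP libraries. It fell by 0.32 ± 0.08 in R248Q (log2, SE; adjusted p = 0.025) and by 0.38 ± 0.08 in R273H (adjusted p = 0.031), while in R175H the difference, given as a description, was -0.50 ± 0.09. R273H against R248Q gave -0.06 ± 0.08 (-0.23 to 0.11; adjusted p = 0.88). Both calls were near the threshold: DESeq2 gave adjusted p of 0.14 in R248Q and 0.16 in R273H, and leaving out GFP replicate 1 ended both, at -0.28 and -0.33. The R248Q call also ended without R248Q replicate 1 (-0.34) or replicate 2 (-0.29), and the R273H call ended without any 1 library other than GFP replicate 2, at values between -0.42 and -0.33. With the length trend of the libraries removed, R273H remained called (-0.32; adjusted p = 0.021) and R248Q did not (-0.20; adjusted p = 0.11).

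HIGD2A, the constitutive relative and itself a complex IV assembly factor, was at 137 and 138 CPM in R175H, 124 and 124 CPM in R248Q, 129 and 124 CPM in R273H and 136.5 and 124 CPM in GFP. It did not pass the test in R175H (0.08 ± 0.06; adjusted p = 0.46), R248Q (-0.07 ± 0.06; adjusted p = 0.53) or R273H (-0.04 ± 0.06; adjusted p = 0.82). There were 25.0 and 25.2 HIGD1A counts per 100 HIGD2A counts in R175H, 32.3 and 31.1 in R248Q, 28.3 and 31.3 in R273H and 36.8 and 38.4 in GFP. No mutant library reached a GFP library, and the log2 ratio differed from that in GFP by -0.58 ± 0.05 (R175H), -0.25 ± 0.06 (R248Q) and -0.33 ± 0.11 (R273H; SD of the difference). Leaving out each library in turn kept these differences between -0.61 and -0.55 (R175H), -0.28 and -0.21 (R248Q) and -0.41 and -0.26 (R273H). HIGD1A has 17 annotated pseudogene copies by name, so reads could be split among copies, and HIGD2A shares 34% of its exons with NOP16 on the opposite strand. The other HIG1 family genes, HIGD1B, HIGD1C and HIGD2B, did not pass the filter.

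CHCHD2, a twin-CX9C protein of the intermembrane space that also acts in the nucleus on the COX4I2 promoter, was at 225 and 251 CPM in R175H, 230 and 225 CPM in R248Q, 236 and 245 CPM in R273H and 279 and 244 CPM in GFP. The R175H and R273H libraries overlapped those of GFP and the R248Q libraries lay just below. As a description it was -0.13 ± 0.07 from GFP in R175H. In R248Q it was -0.20 ± 0.07 (adjusted p = 0.094) and in R273H -0.12 ± 0.07 (adjusted p = 0.49), so neither passed. Without GFP replicate 2 the values were -0.30 and -0.22, with GFP replicate 1 as the only control library. That library was high for short transcripts (median deviation 0.19, log2, under 1000 nt), and the CHCHD2 transcript has 901 nt. The part of length in these values was not tested. CHCHD10, its paralog, was at 47.7 and 52.3 CPM in R175H, 45.9 and 51.6 CPM in R248Q, 52.6 and 53.5 CPM in R273H and 56.4 and 46.1 CPM in GFP, with log2 fold changes of -0.04 ± 0.10, -0.08 ± 0.10 and 0.05 ± 0.10 in the 3 mutants. Per 100 CHCHD10 counts there were 472 and 480.5 CHCHD2 counts in R175H, 501 and 436 in R248Q, 448 and 458.5 in R273H and 495 and 528 in GFP. Of the 6 other CHCH family genes tested, 0 were called in any mutant by edgeR or DESeq2; at an unadjusted p under 0.05, 0 were higher and 3, 2 and 2 were lower in R175H, R248Q and R273H. The lowest in R175H was CHCHD4, the import receptor of this family, at 16.7 and 22.2 CPM in R175H and 27.0 and 24.7 CPM in GFP (-0.39 ± 0.12; adjusted p = 0.053). CHCHD2 has 10 pseudogene copies by name.

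**Figure D4:**
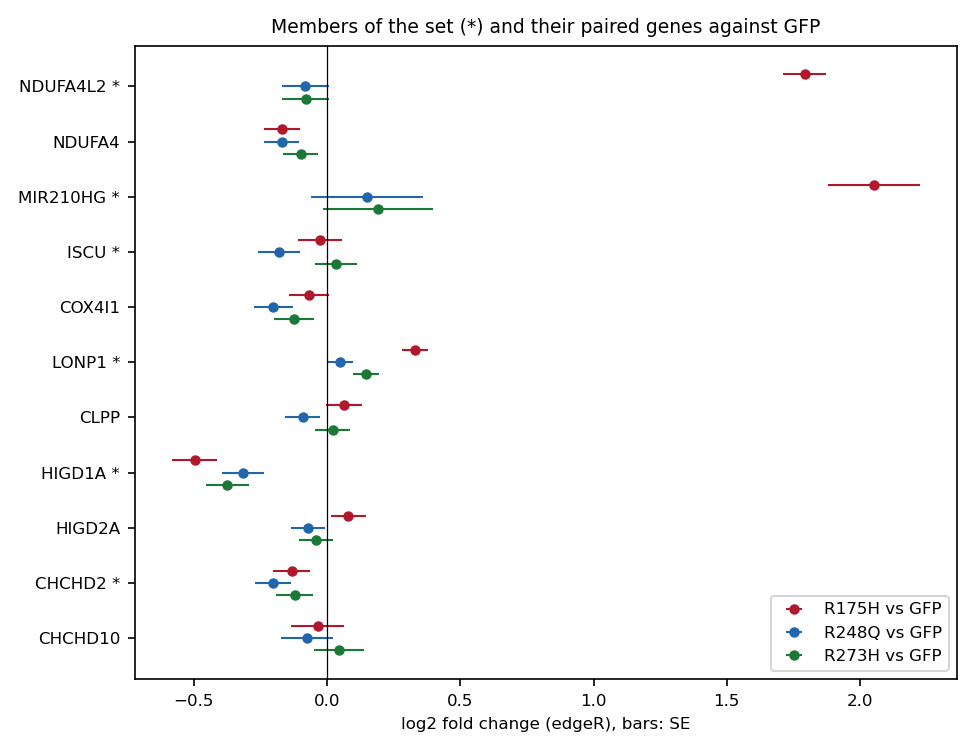
Log2 fold change against GFP with its SE (bars) for the genes of the set (marked *) and their paired genes in R175H, R248Q and R273H. NDUFA4L2 and MIR210HG stand at 1.79 and 2.05 in R175H alone, HIGD1A is below 0 in all 3 mutants, and the paired genes outside the set lie between -0.20 and 0.08.

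Of the 7 genes, 6 passed the count filter. In R175H against GFP, the contrast that chose them, no count of calls is given for the 7 genes. Over all 13213 genes tested, 11.0% were called there, 6.39% higher and 4.59% lower. In R248Q against GFP 0 rose and 1, HIGD1A, fell, beside 6.32% of genes called, 4.88% higher and 1.44% lower. In R273H against GFP 0 rose and 1, again HIGD1A, fell, beside 1.01% called, 0.757% higher and 0.250% lower. DESeq2 called 0 of the 6 in both, and at an unadjusted p under 0.05 there were 0 higher and 3 lower in R248Q and 1 higher and 1 lower in R273H. These comparisons share the GFP libraries.

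R273H against R248Q called 0 of the 6 genes by edgeR or DESeq2, beside 0.151% of all genes, 0.00757% higher and 0.144% lower. At an unadjusted p under 0.05, 1 was higher, ISCU at 0.22 ± 0.08 (0.05 to 0.38; adjusted p = 0.47), and 0 were lower. Among genes of the lists, R175H was also set against the other mutants, where 7.17% of all genes were called against R248Q (3.95% higher, 3.22% lower) and 3.63% against R273H (2.22% higher, 1.41% lower).

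Other genes listed for the mitochondrial hypoxia response rose together in R175H. Of 8 in the list besides the 7 genes, 7 passed the filter and 7 rose against GFP, beside 6.39% of all genes called higher. This count leaves out HIGD1A, which was lower in R175H than in GFP, and COX4I2, which was practically undetected. The median and calls that follow are those of the 7 tested list genes. Their median log2 fold change was 0.97 beside 0.01 over all genes. By edgeR 7 of 7 were also higher in R175H than in R248Q and than in R273H. DESeq2 called 7 higher against GFP, 6 against R248Q and 6 against R273H. PDK1, the kinase that blocks pyruvate dehydrogenase, was at 44.1 and 42.9 CPM in R175H, 16.3 and 14.6 CPM in R248Q, 14.9 and 15.5 CPM in R273H and 15.6 and 15.2 CPM in GFP, a rise of 1.49 ± 0.10 (adjusted p = 1.7e-07). BNIP3L, a mitophagy receptor, was at 101 and 104 CPM in R175H, 46.9 and 47.9 CPM in R248Q, 48.3 and 44.8 CPM in R273H and 46.2 and 45.7 CPM in GFP, a rise of 1.16 ± 0.07 (adjusted p = 7.2e-08). The R175H libraries of both genes lay above the other 6, as for NDUFA4L2. HK2, the hexokinase that docks on the outer membrane, rose by 0.83 ± 0.07 (adjusted p = 7.8e-07). The rest were AK4 (1.39 ± 0.15), PDK3 (0.97 ± 0.15), MXI1 (0.86 ± 0.11) and FAM162A (0.60 ± 0.09). MXI1 encodes a nuclear repressor, so the list is not confined to mitochondrial proteins. BNIP3, the close relative of BNIP3L, was not tested, with at most 0.170 CPM in any library. The list held genes already known to be high in R175H from these libraries, so its direction is not independent evidence.

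In R248Q, 1 of these 7, HK2, rose against GFP, by 0.23 ± 0.06 (adjusted p = 0.049, and 0.12 with DESeq2). Without GFP replicate 1 the HK2 value was 0.14 (adjusted p = 0.23), with the length trend removed it was 0.13 (adjusted p = 0.15), and without any 1 of the other libraries except GFP replicate 2 the call ended as well. In R273H 0 of 7 were called by edgeR or DESeq2, with 1 higher and 0 lower at an unadjusted p under 0.05. Of 31 further hypoxia genes, listed for acting outside mitochondria, 27 were higher and 0 lower in R175H against GFP, with a median of 0.68. DESeq2 called 25 higher and 0 lower, and edgeR called 6.39% of all genes higher. This list too was chosen with earlier results of these data known, so its direction in R175H is not independent evidence. In R248Q 0 were higher and 1 lower (ADM, a vasodilator peptide, -0.38 ± 0.10; adjusted p = 0.037, and 0.22 with DESeq2). In R273H 0 were higher and 0 lower. Over all genes, 4.88% were called higher and 1.44% lower in R248Q, and 0.757% higher and 0.250% lower in R273H. The ADM call also ended without GFP replicate 1 (adjusted p = 0.12), without any 1 of the other libraries except GFP replicate 2, and with the length trend removed (-0.30; adjusted p = 0.10). For R273H that 0 stood beside 4 higher and 1 lower at an unadjusted p under 0.05, and 0 by DESeq2.

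The genes nearest to NDUFA4L2 and MIR210HG in profile were found by the root mean square difference of log2 CPM over the 8 libraries, each gene centred on its own mean, among 11972 genes. Nearest to NDUFA4L2 were CA9, a carbonic anhydrase, at 0.13, PDK1 at 0.18, MIR210HG at 0.19, NDRG1 at 0.20 and APLN, a peptide hormone, at 0.21, against a median of 0.81 over all genes. Nearest to MIR210HG were NDRG1 at 0.10, NDUFA4L2 at 0.19, CA9 at 0.22, PDK1 at 0.23 and APLN at 0.26, against a median of 0.84. NDUFA4L2 and MIR210HG appear in each other's lists, and the remaining names are the same 4 genes. CA9 was at 40.0 and 46.3 CPM in R175H, 11.5 and 11.3 CPM in R248Q, 9.07 and 11.9 CPM in R273H and 13.1 and 11.2 CPM in GFP. NDRG1 was at 44.6 and 45.3 CPM in R175H, 12.3 and 14.1 CPM in R248Q, 11.6 and 13.2 CPM in R273H and 9.77 and 10.7 CPM in GFP. The likeness rests on the 2 R175H libraries, which stand above the other 6 for each of these genes. The set was chosen around genes high in those same libraries, so the nearness is a description and not independent evidence.

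**Figure D5:**
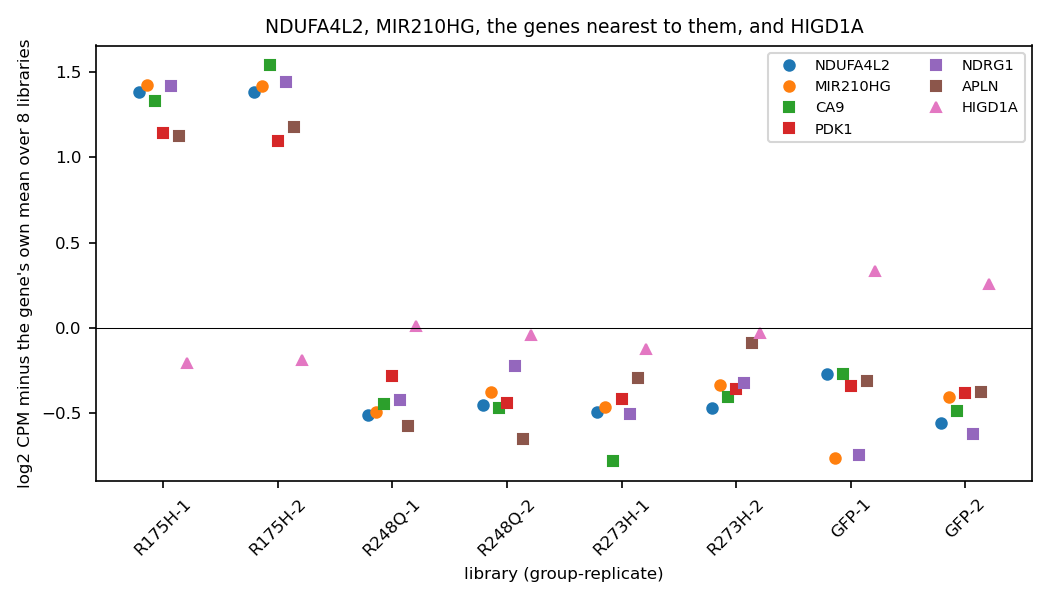
Log2 CPM of each gene minus its own mean over the 8 libraries, by library, for NDUFA4L2, MIR210HG, the 4 further genes nearest to them and HIGD1A. The first 6 genes lie above 1 in both R175H libraries and below 0 in the other 6, whereas HIGD1A (triangles) is highest in the GFP libraries.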

How the data were processed

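Messenger RNA libraries of HGC27 cells were prepared with a Kapa mRNA kit from total RNA, per the labels' protocols, and the submitters' processing notes name bcl2fastq, STAR 2.5 and the hg19 build. The authors deposited 1 table of raw counts for 25435 gene symbols. How reads were counted, with which annotation, strand setting and filters, the sources used here do not say, so opposite-strand overlaps and near-identical copies are uncertain.

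The fit used edgeR 4.0.16 under R 4.3.3. The filter filterByExpr (minimum count 10, minimum total 15) left 13213 genes, and TMM factors lay between 0.989 and 1.01. All 8 libraries entered a quasi-likelihood fit across all genes, with group means, 4 residual degrees of freedom and a biological coefficient of variation of 4.51%. Calls needed an adjusted p (Benjamini-Hochberg) below 0.05. SE came from dividing the size of the log2 change by the root of F. Log2 CPM for profiles used a prior count of 2. Lengths, overlaps and 3′ UTRs came from GENCODE 29 by symbol (93.3% of tested genes had a length), promoters and microRNA from RefSeq.

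Alternatives were DESeq2 1.42.0 and its size factors, no filter, only the groups compared, a replicate block, removal of the length trend (loess, span 0.3) and leaving out each library. The counts of list genes under these settings were chosen after seeing the data. Libraries were not treated as paired. The procedure was tested on simulated data.

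The members and gene lists were chosen with earlier results of these data known. Named genes were the 7 genes, their paired genes, the 5 nearest profiles to NDUFA4L2 and to MIR210HG averaging 1 CPM or more, and up to 3 genes of lowest p per list and mutant, with called genes named. Antisense, readthrough and placeholder names were passed over. SCO1, LRPPRC, COX10, FGFRL1, TNPO1, E2F3, AK4, PDK3, MXI1, FAM162A, CHCHD4, KRT8, VIM, CSPG4, NOTCH3 and PDGFRB were also named, after their values were seen. Intervals and floors cover counting error or spread between libraries only. Results for 1 gene are not reported here.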

Additional observations from a re-analysis of the deposited data

How the results depend on the processing

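Counts of called genes moved with the fit. R175H against GFP called 1451 genes, DESeq2 827 and a fit of only the groups compared 538. For R248Q against GFP the main 835 became 1439 with no filter, 482 with DESeq2, 391 with only the groups compared and 538 with a replicate block. For R273H against GFP the main 133 became 503, 6 and 58 with no filter, only the groups compared and a replicate block, and 305 with the length trend removed. R175H against R248Q called 947, DESeq2 534, only the groups compared 2573 and the length removal 1563. R175H against R273H called 479, no filter 759, DESeq2 285, only the groups compared 1354, a replicate block 318 and the length removal 1088. R273H against R248Q called 20, no filter 176, only the groups compared 816, a replicate block 4 and the length removal 38. Leaving out 1 library gave 463 to 3392, 226 to 3447, 8 to 2258, 231 to 2435, 117 to 1640 and 0 to 574 in the same order of comparisons, and the highest count of each comparison with GFP came without GFP replicate 2. The causes were not tested.

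The HIGD1A call in R248Q was lost with DESeq2 (-0.317), only the groups compared (-0.318), a replicate block (-0.316) and the length removal (-0.203), and ranged from -0.355 to -0.275 without 1 library. In R273H it was lost with DESeq2 (-0.379), only the groups compared (-0.375) and a replicate block (-0.374), and ranged from -0.422 to -0.33. LONP1 in R273H passed with the length removal (0.154) and ranged from 0.138 to 0.156 without 1 library. CHCHD2 in R248Q passed with no filter (-0.199) and ranged from -0.298 to -0.10, and in R273H from -0.217 to -0.019. ISCU in R248Q ranged from -0.259 to -0.098. PDK1 in R248Q against GFP, at 0.001, reversed to -0.425 (adjusted p = 0.041) with the length removal, which uses a longest annotated transcript of 14193 nt for it. No called difference of the 7 genes changed direction. Some uncalled ones did: without GFP replicate 1, NDUFA4L2 stood at 0.073 in R248Q and 0.074 in R273H. Depth limits COX4I2, at 0 or 1 count, and MIR210HG, at 34 to 56 counts outside R175H. Deviations of same-numbered libraries correlated between -0.244 and 0.073 across groups, so the numbers were not taken as pairs, and the replicate block is given only as an alternative.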

Other observations

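Complex I subunits and the listed factors that build mitochondria did not, as lists, show the pattern of NDUFA4L2 in these libraries. Of 36 complex I subunits, 0 were called against GFP in R175H, R248Q or R273H by edgeR or DESeq2, with 1 higher and 8 lower, 0 higher and 16 lower, and 0 higher and 1 lower at an unadjusted p under 0.05. Their median log2 fold changes were -0.09 in R175H, -0.15 in R248Q and -0.08 in R273H, and became 0.03, -0.03 and 0.04 in the same order without GFP replicate 1. NDUFS7, a subunit that carries an iron-sulfur cluster, was at 279 and 283.5 CPM in R175H and 231 and 245 CPM in R248Q, and was higher in R175H by 0.24 ± 0.07 (adjusted p = 0.045, not called by DESeq2).

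Of 10 tested genes of mitochondrial biogenesis, 1 fell in R175H against GFP, beside 4.59% of all genes called lower. TFB2M, a mitochondrial transcription factor, was at 46.3 and 42.3 CPM in R175H and 58.1 and 51.1 CPM in GFP (-0.31 ± 0.09; adjusted p = 0.047, and 0.12 with DESeq2), and without GFP replicate 1 stood at -0.21 (adjusted p = 0.16). NRF1, which drives nuclear genes of the respiratory chain, was at 21.1 and 22.1 CPM in R175H and 26.5 and 28.5 CPM in R248Q (-0.35 ± 0.10; adjusted p = 0.047). PPRC1, a coactivator of the same genes, was at 221 and 228 CPM in R175H and 264 and 266 CPM in R248Q (-0.24 ± 0.06; adjusted p = 0.020), and DESeq2 called 1 of these 2 genes. Of 6 tested p53 targets that act in mitochondria, 0 were called against GFP in any mutant by edgeR or DESeq2, with 0 higher in each and 1, 2 and 0 lower in R175H, R248Q and R273H at an unadjusted p under 0.05.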
